A study of Homo sapiens with 12 samples.

Results

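Panc1, MiaPaca2 and SW620 are the 3 of 8 human tumour cell lines in which the line mean of CDH1, the gene of E-cadherin, lay below -2 on the log2 scale, and they are called the low E-cadherin lines here. They hold 6 of the 12 arrays: 2 of Panc1, 3 of MiaPaca2 and 1 of SW620. The other 5 lines hold the other 6 arrays: 1 each of Capan2, HPAC, HPAFII and HCT-116, and 2 of HT29. Each array compared RNA of 1 cell line with a common reference of whole human RNA, and the series title concerns tissue factor, the starter of blood coagulation, in xenografts of pancreatic cancer. Both arrays of Panc1, both of HT29 and 2 of the 3 of MiaPaca2 carry a DMSO label, and the other arrays carry none. In the design text the lines are all pancreatic, but SW620, HT29 and HCT-116 are catalogued as colorectal cancer lines. The 3 low lines therefore come from 2 organs, with 2 pancreatic lines and 1 colorectal line among them.

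E-cadherin is the adhesion molecule of adherens junctions, which hold the cells of an epithelium together. In the epithelial to mesenchymal transition, repressors such as ZEB1 and SNAI2 bind E-box motifs in the promoters of CDH1 and other epithelial genes, while intermediate filaments of vimentin and, in many cells, N-cadherin appear. GRHL2 and OVOL2 are transcription factors that oppose ZEB1 and keep epithelial genes on, and ESRP1 and ESRP2 set the epithelial pattern of splicing. Carcinoma lines differ in how far along this transition they lie.

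CDH1 had line means of -2.76 in Panc1, -5.40 in MiaPaca2 and -2.86 in SW620. It stood at 3.37 in Capan2, 2.36 in HPAC, 3.02 in HPAFII, 0.81 in HCT-116 and 1.86 in HT29. The nearest lines on either side of the threshold were Panc1 and HCT-116. These values chose the lines, so CDH1 was not tested and no p-value is given for the split into 3 and 5 lines. The deposited ratios were read as log2 with the cell line over the reference. This direction is the likely one but is not stated, and with the ratio turned every "lower" would read "higher". The files hold no intensities, so a probe near background cannot be told from a bright one. RNA of a whole culture was measured, so fewer cells that carry a transcript and less of it in each cell cannot be told apart.

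A gene was called lower (or higher) in the low lines when all 3 line means lay below (or above) all 5 others with a gap of at least 1 log2 unit between the nearest lines of the 2 sets. By this rule 71 of 18334 genes were lower, which is 0.387% of all genes and includes CDH1, and 17 were higher, which is 0.0927%. The lines were chosen on these arrays, so nothing is read from these shares. The 71 lower genes had a median difference of -3.51 between the mean of the 3 lines and the mean of the 5, and the 17 higher genes one of 2.51. With a gap of at least 2 the counts were 27 (0.147% of all genes) and 1 (0.00545%), the latter CHGB. Of the 71 lower genes, 69 also did not overlap between single arrays, as 1.68% of all genes did, and the exceptions were ELF3 and ELOVL7. All 17 higher genes were without such overlap, as were 1.55% of all genes. In 55 of the 71 all 3 low lines lay below the reference, and in 59 all 5 other lines lay above it. In 8 of the 17 higher genes all 3 low lines stood above the reference, and in 16 all 5 other lines stood below it. Just inside the limit lay TMPRSS4 with a gap of -1.01 and BOLA3-DT with 1.03, and just outside lay FAM107B with -0.998 and PPT2 with 0.995. A rule over fewer lines is easier to meet: the lower genes numbered 125 without Panc1, 199 without SW620 and 149 without HCT-116. The higher genes numbered 34 without Panc1, 48 without MiaPaca2, 128 without SW620, 33 without Capan2 and 57 without HCT-116. Between single arrays with a gap of at least 1 there were 54 lower and 6 higher genes.

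Promoters of the lower genes held the hexamer CACCTG, or its other strand CAGGTG, more often than promoters in general. This hexamer is the E-box that ZEB and SNAIL proteins bind. It was searched in the 250 bases before the gene start, in the RefSeq promoter table of build GRCh38.p14, which had an entry for 48 of the 71 lower genes. Of those 48 promoters 22 held a match, which is 45.8%, against 2411 of 14411 promoters of all measured genes, which is 16.7%. At least 2 matches were found in 8 of the 48, or 16.7%, against 2.22% of all. Among the higher genes 2 of 13 promoters, or 15.4%, held a match. The share depends on how the lower genes are chosen: it was 23.0% with a gap of any size, 21.5% with DMSO-labelled arrays alone and 26.5% with unlabelled arrays alone. The related hexamer CAGCTG, which reads the same on both strands, was found in 14.6% of the lower genes' promoters, 15.4% of the higher genes' and 13.4% of all. The median GC content was 63.0%, 64.4% and 62.8% in the same order. Genes lower only in the pancreatic lines, by the split described further on, held CACCTG in 80 of 292 promoters or 27.4%, and genes lower only in SW620 in 81 of 480 or 16.9%. A match is a description of these letters and not a bound site. The promoters of 3 lower genes with matches and of VIM, the higher gene with the widest difference, are given 5′ to 3′ with the matches in capitals. They are RAB25 at chr1:156060910-156061159 on the plus strand, AP1M2 at chr19:10587313-10587562 on the minus strand, TMC4 at chr19:54173161-54173410 on the minus strand and VIM at chr10:17227991-17228240 on the plus strand.
RAB25: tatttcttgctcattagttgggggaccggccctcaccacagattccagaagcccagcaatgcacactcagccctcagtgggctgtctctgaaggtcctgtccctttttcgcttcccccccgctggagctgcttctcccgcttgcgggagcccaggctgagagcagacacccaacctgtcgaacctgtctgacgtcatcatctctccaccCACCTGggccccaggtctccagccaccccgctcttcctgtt
AP1M2: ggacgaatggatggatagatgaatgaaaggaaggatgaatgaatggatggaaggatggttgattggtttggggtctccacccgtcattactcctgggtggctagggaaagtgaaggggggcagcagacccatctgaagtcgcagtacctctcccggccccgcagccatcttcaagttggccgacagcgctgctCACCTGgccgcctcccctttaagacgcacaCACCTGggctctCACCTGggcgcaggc
TMC4: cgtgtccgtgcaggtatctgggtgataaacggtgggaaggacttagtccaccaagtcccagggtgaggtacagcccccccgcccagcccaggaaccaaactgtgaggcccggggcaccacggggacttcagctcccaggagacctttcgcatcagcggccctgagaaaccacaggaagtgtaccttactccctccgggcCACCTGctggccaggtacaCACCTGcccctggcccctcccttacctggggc
VIM: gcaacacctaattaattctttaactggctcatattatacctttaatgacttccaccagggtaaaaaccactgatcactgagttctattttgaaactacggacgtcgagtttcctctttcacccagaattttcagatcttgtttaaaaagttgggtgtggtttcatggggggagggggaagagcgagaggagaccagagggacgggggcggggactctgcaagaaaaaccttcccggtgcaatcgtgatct
The match of RAB25 starts 41 bases before the gene start. Those of AP1M2 start 57, 27 and 15 bases before it, and those of TMC4 51 and 32 bases. The VIM window holds none.

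The 2 widest gaps belonged to MAL2 and RAB25, both of apical membrane traffic. MAL2, a membrane protein that carries cargo to the apical surface, stood at -5.27 in Panc1, -5.50 in MiaPaca2 and -5.40 in SW620. In the other lines it stood at 3.46 in Capan2, 3.78 in HPAC, 2.78 in HPAFII, 2.95 in HCT-116 and 5.04 in HT29. The 3 low lines thus lay within a narrow band of each other, 8.05 log2 units under the nearest other line. RAB25, a small GTPase of apical recycling, stood at -2.20, -2.09 and -2.39 in Panc1, MiaPaca2 and SW620, and between 2.83 and 3.38 in the other 5. Other genes of this list had narrower gaps. AP1M2, the epithelial subunit of a clathrin adaptor, stood at -0.99, -1.76 and -1.82 against 1.69 to 2.19. MYO5B, a motor that moves recycling vesicles, stood at -0.67, -1.98 and 0.95 against 2.32 to 3.94, so that SW620 was nearest to the others. TMC4, a channel-like membrane protein, stood at -0.46, -0.96 and -0.75 against 1.46 to 1.79.

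**Figure D1:**
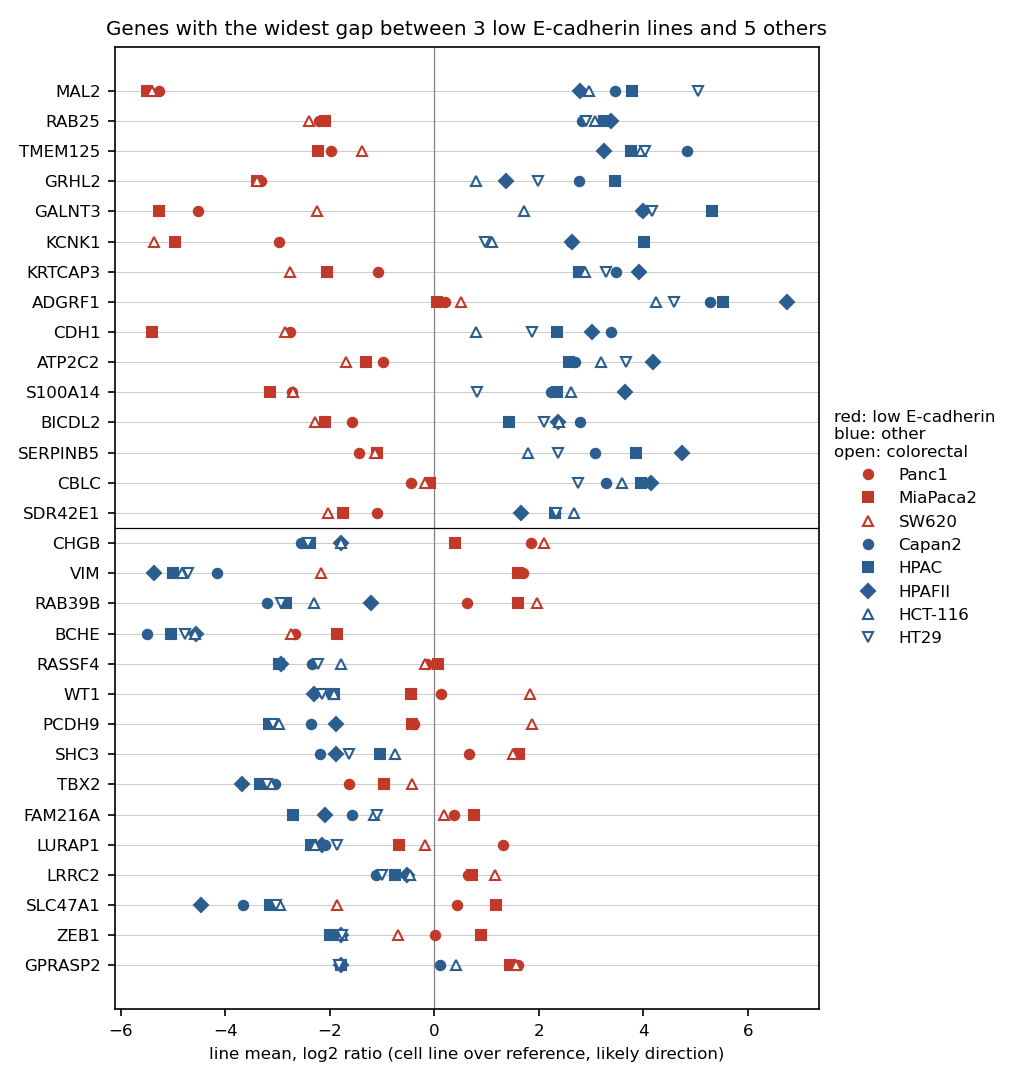
Line means (log2 ratio, horizontal axis) of the 15 genes with the widest gap below and, under the black line, the 15 with the widest gap above. Each point is 1 line, red for the 3 low E-cadherin lines and blue for the other 5, with open symbols for colorectal lines; the red points of MAL2 lie between -5.50 and -5.27 and all blue ones above 2.7 log2 units.

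In the list of apical polarity and membrane traffic, 5 of 29 measured genes were called lower and none higher, and the list's median difference was -1.52 against 0.05 over all genes. Of all genes 0.387% were called lower and 0.0927% higher. By a gap of any size 13 of the 29 lay below all 5 other lines and none above, against 3.09% and 3.74% of all genes. The list was not tested as a set. This list and the others were drawn up with earlier results of these data known, so their counts are a description. Genes of polarity complexes such as PATJ, at -0.67, -0.12 and -0.03 in Panc1, MiaPaca2 and SW620 and at 0.71 to 1.33 in the others, were below all 5 lines by less than the limit. LLGL2 and RAB17 were low in the pancreatic low lines but not clearly in SW620, where they stood at 1.02 and 0.18. The other 5 lines spanned 0.28 to 1.80 for LLGL2 and -0.09 to 0.45 for RAB17.

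Among transcription factors of epithelia, 4 were called. GRHL2, which keeps CDH1 and other junction genes on, stood at -3.32 in Panc1, -3.40 in MiaPaca2 and -3.39 in SW620. It stood at 2.77 in Capan2, 3.46 in HPAC, 1.38 in HPAFII, 0.80 in HCT-116 and 1.99 in HT29. The low lines differed from each other by far less than the other 5 did. OVOL1, a zinc finger factor of epithelia, stood at -1.09, -1.14 and -1.08 against 1.42 to 3.75. GATA6, a factor of gut and pancreas epithelium, stood at -1.32, -3.30 and -1.42 against -0.03 to 3.66, with Capan2 nearest. ELF3, an epithelial factor of the ETS family, stood at -2.03, -1.31 and -0.58 against 0.51 to 2.46. These were the 4 of 22 measured factors called lower, none was called higher, and the list's median was -1.13. By any gap 7 of the 22 lay below all other lines, and over all genes the shares were 0.387% called lower and 3.09% by any gap. OVOL2 did not part the lines, with 0.29 and 0.22 in Panc1 and MiaPaca2 but 2.00 in SW620, above HCT-116 at 1.05 and below the other 4 lines. KLF5, a factor of proliferating epithelium, behaved likewise with -2.22, -1.86 and 2.12 against 1.85 to 3.71.

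Junction genes other than CDH1 were fewer among the calls. CLDN7, a claudin of tight junctions that also binds EPCAM, stood at 0.42 in Panc1, -2.0 in MiaPaca2 and -1.33 in SW620 and at 2.53 to 3.16 in the other 5 lines. MARVELD3, a tight junction membrane protein, stood at -1.04, -1.01 and 0.17 against 1.36 to 2.97, and 2 of its 3 features kept that order. These 2 of 16 measured tight junction genes were called lower and none higher (median -0.97), and 5 lay below all other lines by any gap, against 0.387% and 3.09% of all genes. Of 14 adherens junction genes only CDH1 was called, and the median was -1.25. JUP, the catenin plakoglobin, lay below all 5 others by a gap of -0.62. None of 15 desmosome and hemidesmosome genes was called, although 5 lay below all other lines by a smaller gap and the median was -1.29. The widest of these was DSC2, a desmosomal cadherin, at 0.71, -0.11 and -0.09 against 1.67 to 3.73. Against the other lines of their own organ, the desmosomal median was -1.61 in Panc1 and MiaPaca2 and -0.28 in SW620. None of 9 measured keratins of simple epithelia was called, and their median within organs was -2.24 in Panc1 and MiaPaca2 and 0.22 in SW620. KRT8 and KRT18, the paired keratins of simple epithelia, stood at 0.92 and 1.21 in SW620 against -0.30 and -0.21 in Panc1 and -0.32 and -0.13 in MiaPaca2. HCT-116 stood below SW620 for both, at 0.49 and 0.16.

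Some proteases and protease inhibitors of the epithelial surface were among the calls. SERPINB5, the serpin maspin, stood at -1.45 in Panc1, -1.10 in MiaPaca2 and -1.14 in SW620, and at 1.79 to 4.74 in the other lines. KLK10, a kallikrein, stood at -1.01, 0.79 and 0.92 against 2.89 to 4.24. SLPI, a secreted protease inhibitor, stood at -3.02, -3.32 and -3.03 against -1.69 and -1.21 in HCT-116 and HT29 and 1.07 to 2.03 in the pancreatic lines. TMPRSS4, a membrane serine protease, was called through a gap of -1.01 because HCT-116 stood at -1.31, while the other 4 lines stood at 2.20 to 4.14. In all, 4 of 16 measured genes were called lower (0.387% of all genes) and 10 lay below all 5 other lines by some gap (3.09% of all), with a list median of -1.69. ST14, the protease matriptase, and SPINT1, one of its inhibitors, were among those below the limit, with gaps of -0.89 and -0.44. Other members went the opposite way in 1 line: TMPRSS3, a membrane protease, was highest in SW620 at 1.24, and SPINT2, an inhibitor, was highest in Panc1 at 3.30.

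Of 33 mucin and gut tumour antigen genes, 2 were called lower, both enzymes of sugar chains. GALNT3, which starts mucin-type O-glycosylation, stood at -4.52, -5.27 and -2.24 in Panc1, MiaPaca2 and SW620 and at 1.72 to 5.32 in the others. FUT3, the fucosyltransferase of the Lewis antigens, stood at -2.03, -1.72 and -2.22 against 0.25 to 3.17. The mucin genes MUC1 and MUC16 did not part the lines: MUC1 was lowest in HCT-116 at -2.63 and HT29 at -2.56. By any gap 4 of the 33 lay below all other lines, and the list's median was -1.63. Of all genes 0.387% were called lower and 3.09% lay below by any gap.

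Tissue factor, the gene of the series title, was itself among the lower genes. F3 stood at -1.03 in Panc1, -0.71 in MiaPaca2 and -0.39 in SW620. It stood at 1.88 in HCT-116 and 1.19 in HT29, and at 5.72 to 6.87 in Capan2, HPAC and HPAFII. The gap of -1.58 lay between SW620 and HT29. F3 was the only called gene of 25 measured genes of coagulation and fibrinolysis, whose median difference was -0.18. Of all genes 0.387% were called lower. PLAUR, the urokinase receptor, was below all 5 lines by -0.93, at -0.95, -0.59 and -2.07 against 0.35 to 1.84. F2R, the thrombin receptor, did not part the lines: it was highest in MiaPaca2 at 3.24 and lowest in SW620 at -4.42.

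Other genes of the 15 widest gaps downward span several roles. TMEM125, a transmembrane protein, stood at -1.97, -2.23 and -1.39 in Panc1, MiaPaca2 and SW620 and at 3.24 to 4.84 in the others. KCNK1, a potassium channel, stood at -2.97, -4.96 and -5.36 against 0.97 to 4.00. ADGRF1, an adhesion G protein coupled receptor, was near the reference in the low lines at 0.20, 0.05 and 0.51 and at 4.25 to 6.75 in the others. The low lines thus did not have to lie below the reference to lie below all other lines. ATP2C2, a calcium and manganese pump of the secretory pathway, had a gap of -3.56, and S100A14, a calcium-binding protein, one of -3.52. KRTCAP3, BICDL2, CBLC and SDR42E1 had gaps of -3.84, -3.01, -2.82 and -2.76. CBLC is a ubiquitin ligase of epithelial cells and BICDL2 an adaptor of vesicle transport.

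The genes that were higher in all 3 low lines were fewer, with smaller gaps, and few were classical mesenchymal genes. VIM, the intermediate filament of mesenchymal cells, stood at 1.70 in Panc1, 1.60 in MiaPaca2 and -2.17 in SW620. It stood at -4.15 in Capan2, -4.99 in HPAC, -5.35 in HPAFII, -4.82 in HCT-116 and -4.71 in HT29. SW620 thus lay above all 5 other lines yet below the reference and below both pancreatic low lines. ZEB1, the repressor of CDH1, stood at 0.02, 0.89 and -0.69 against -1.99 to -1.76, and the values of the 5 other lines lay close together. TBX2, a T-box repressor, stood at -1.64, -0.96 and -0.43 against -3.68 to -3.04. ZEB1 and TBX2 were the 2 of 19 measured repressors called higher, none was called lower, and the list's median was 0.17. Of all genes 0.0927% were called higher and 0.387% lower. Both genes were read by 1 feature, and their MiaPaca2 arrays lay far apart. These arrays stood at -0.255, 1.85 and 1.07 for ZEB1 and at -2.07, -1.10 and 0.295 for TBX2. ZEB2 stood at -1.35 in Panc1, above the -2.69 to -2.19 of the other lines, at -2.14 in MiaPaca2, just above them, and at -2.29 in SW620, within them, and SNAI2 overlapped between the sets, as the plot of epithelial and mesenchymal genes shows.

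**Figure D2:**
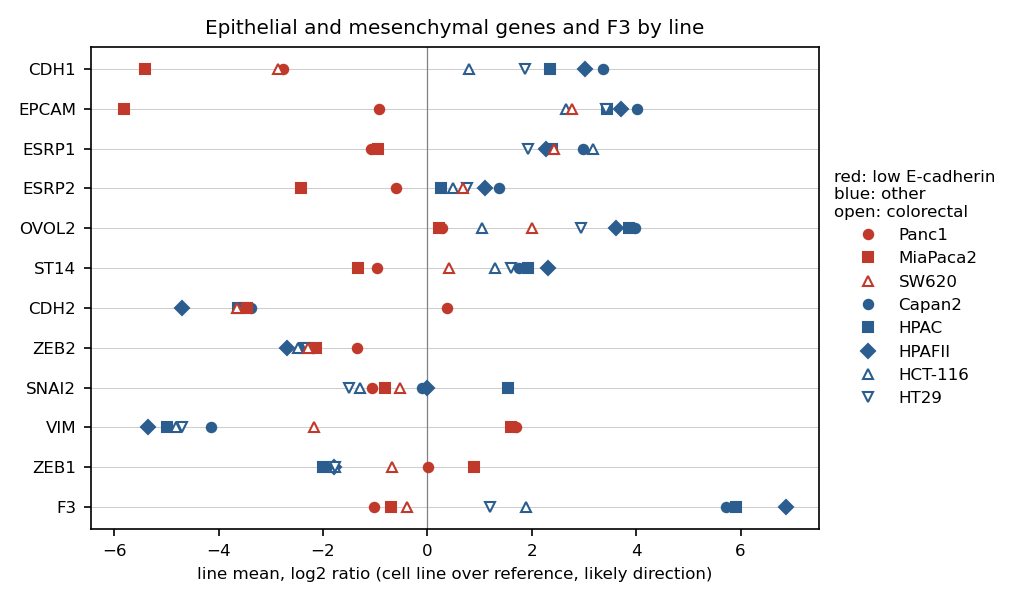
Line means (log2 ratio, horizontal axis) of 12 epithelial, mesenchymal and coagulation genes, 1 point per line, red for the 3 low E-cadherin lines and blue for the other 5, open symbols for colorectal lines. CDH1, VIM, ZEB1 and F3 part red from blue, whereas the open red point of SW620 lies among the blue ones for EPCAM at 2.78 and ESRP1 at 2.43.

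Other mesenchymal genes were rarely called, and so were genes in general, of which 0.0927% were called higher and 3.74% lay above the other lines by any gap. CDH2, N-cadherin, stood at 0.38 in Panc1 but at -3.45 in MiaPaca2 and -3.65 in SW620, within the -4.70 to -3.37 of the other lines. Of 28 genes of filaments and motility only VIM was called, and 3 lay above the other lines by any gap (median 0.99). Next to VIM came MSN, the membrane linker moesin, at 0.72, 0.43 and 0.31 against -2.71 to -0.47. Of 34 genes of matrix and matrix enzymes none was called and 3 lay above by any gap (median 0.62), among them the collagen gene COL5A1 by 0.33. LOXL2, a collagen crosslinking enzyme, was high in Panc1 and MiaPaca2 at 0.57 and 0.97 and low in SW620 at -4.33. COL5A2, a fibrillar collagen, showed the same order with 1.30, 3.20 and -2.35. None of 32 genes of the TGF-beta and BMP pathway was called. BMP4, a ligand, stood at -2.70 and -2.96 in Panc1 and MiaPaca2 but at 2.34 in SW620, within the 2.27 to 3.45 of the other lines.

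Some of the higher genes are best known from nerve and endocrine cells. CHGB, chromogranin B of secretory granules, had the widest gap, 2.18, and stood at 1.85 in Panc1, 0.40 in MiaPaca2 and 2.11 in SW620 against -2.54 to -1.78 in the other lines. RAB39B, a small GTPase of neurons, stood at 0.62, 1.60 and 1.96 against -3.21 to -1.22. PCDH9, a protocadherin, stood at -0.38, -0.43 and 1.86 against -3.16 to -1.89. SHC3, a signalling adaptor of neurons, stood at 0.67, 1.62 and 1.51 against -2.18 to -0.75. In the list of neural and synaptic genes only CHGB of 30 was called. GAP43, a growth cone protein, and SYP, synaptophysin of vesicles, lay above all 5 lines by 0.90 and 0.69, and the list's median was 0.50. The brain-derived neurotrophic factor BDNF, which the list does not hold, was instead called lower, at -1.26, -1.47 and -2.01. Its gap of -2.71 was wider than that of any higher gene. BCHE, the enzyme butyrylcholinesterase, had a gap of 1.82 but stayed at -2.66, -1.87 and -2.73 in the low lines. WT1, a zinc finger factor, was highest in SW620 at 1.82, with 0.13 in Panc1, -0.44 in MiaPaca2 and -2.30 to -1.92 in the others. RASSF4, FAM216A, LURAP1, LRRC2, SLC47A1 and GPRASP2 had gaps between 1.03 and 1.61. SLC47A1 is a drug and toxin exporter and RASSF4 a Ras association domain protein.

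Genes of other programmes and other cell types gave no call at a gap of 1, as most genes did not. Of 28 proliferation genes 4 lay above all 5 other lines by a smaller gap, against 3.74% of all genes, and the median was 0.23. The widest was MCM3, a replication helicase subunit, by 0.43. None of 28 interferon response genes was called, though 6 lay below all other lines by a smaller gap, against 3.09% of all genes, and the median was -1.40. The widest of them was IFI27, an interferon-induced membrane protein, at -0.47, -1.87 and -1.62 against 0.01 to 4.14. Against the other lines of their own organ, the interferon median was -1.94 in Panc1 and MiaPaca2 and -0.36 in SW620. None of 13 fibroblast, endothelial and leukocyte markers was called. PDGFRB and PTPRC, markers of fibroblasts and leukocytes, lay at -4.17 to -3.13 and -2.60 to -2.41 in the low lines, above the other 5 lines by 0.10 and 0.01. Markers of origin were mixed. Of 13 intestinal markers SW620 had VIL1, a microvillus protein, at 2.14 and ASCL2, a stem cell factor, at 3.23, but CDX2 at 1.05 and KRT20 at 0.17, as in Panc1 with 1.02 and 0.14. Panc1 and MiaPaca2 had KRT7, a duct keratin, at -1.63 and -1.32 against 3.32 to 4.45 in the other pancreatic lines. SOX9, a duct factor, stood at 2.87 and 2.00 against 1.41 to 2.05. In all, 5 of 14 pancreatobiliary markers were lower in Panc1 and MiaPaca2 than in the other pancreatic lines by at least 1 log2 unit, and none was higher. Of all genes 2.75% were lower and 1.69% higher by that rule.

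**Figure D3:**
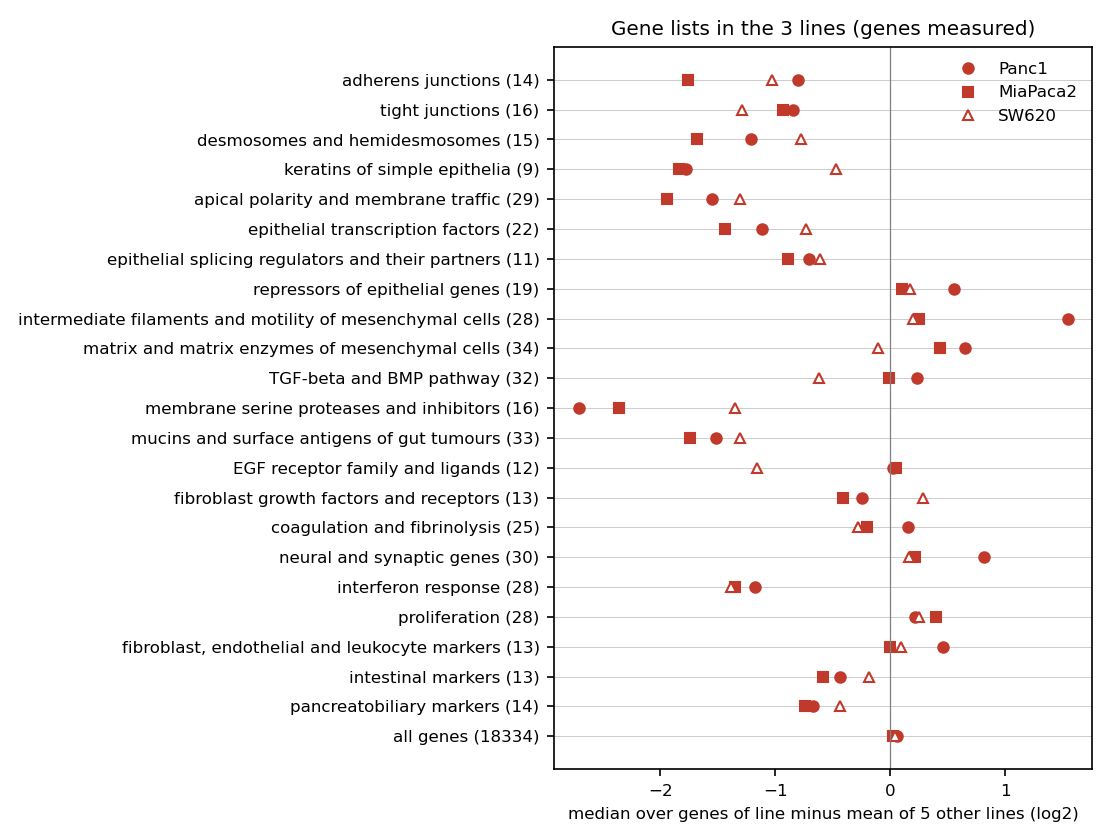
For each gene list (number measured in brackets), the median over its genes of 1 low line minus the mean of the 5 other lines, in log2 units on the horizontal axis. Red circles stand for Panc1, squares for MiaPaca2 and open triangles for SW620. The epithelial lists lie left of 0 in all 3 lines, and the medians of all genes lie between 0.02 and 0.06. Of the 5 other lines Capan2, HPAC and HPAFII are pancreatic, so the SW620 points also hold differences between organs. Against HCT-116 and HT29 alone, which is not drawn, the SW620 median was 0.22 for keratins. It was -0.24 for splicing regulators, -0.28 for desmosomal genes and -0.93 for apical genes.

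To see how far the 3 lines share a pattern across organs, the low lines were compared with the other lines of their own organ. The arrays of the 2 organs are separate, but CDH1 chose the lines in both. Panc1 and MiaPaca2 both lay below Capan2, HPAC and HPAFII by at least 1 log2 unit for 505 genes, or 2.75% of all, and SW620 lay below HCT-116 and HT29 by as much for 729 genes, or 3.98%. These lists shared 111 genes, which is 22.0% of the pancreatic list and 15.2% of the colorectal list. For genes higher in the low lines the counts were 310 (1.69%) and 713 (3.89%), and 32 were shared, which is 10.3% and 4.49%. By any amount, SW620 lay below both other colorectal lines for 262 of the 505 genes, or 51.9%, against 29.8% of all genes. It lay above both for 108 of the 310, or 34.8%, against 34.3% of all genes. In the opposite direction 20 genes lower in the pancreatic low lines, or 3.96%, were higher in SW620 by at least 1. The shared part was larger among wider pancreatic gaps on the lower side: 32 of the 86 genes with a gap of at least 3, or 37.2%, were also lower in SW620. Without HCT-116 the share of lower genes was 44.6% and that of higher genes 35.2%, with SW620 compared with HT29 alone. Without HT29, with SW620 compared with HCT-116 alone, they were 30.9% and 13.2%. A gap to 1 line is easier to meet than a gap to 2. The share of all genes under these rules was not computed, so these shares cannot be set against the 3.98% and 3.89% above.

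**Figure D4:**
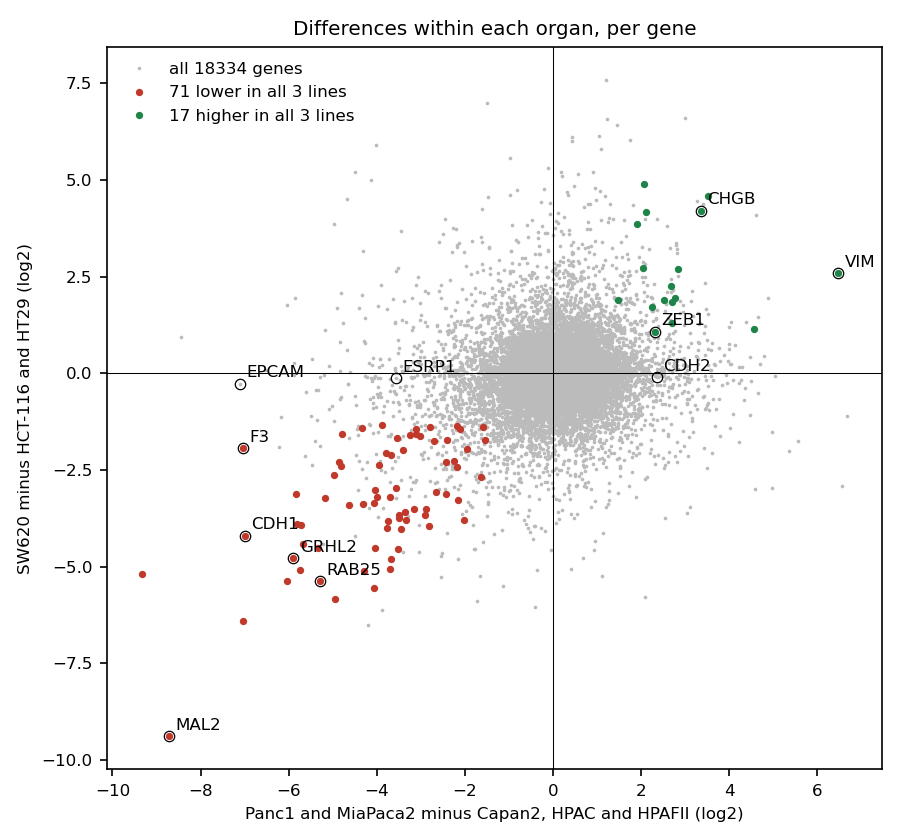
Each point is 1 gene, with the difference between the pancreatic low lines and the other pancreatic lines on the horizontal axis and the difference between SW620 and the other colorectal lines on the vertical axis, both in log2 units. Red points are the 71 genes called lower and green points the 17 called higher; EPCAM and ESRP1 lie left of the centre and near 0 on the vertical axis, and MAL2 lies lowest.

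SW620 differed from Panc1 and MiaPaca2 in some well-known epithelial genes. Of the 505 genes lower in the pancreatic low lines, SW620 lay within or above the range of the 5 other lines for 256, or 50.7%, a smaller share than the 84.9% of all genes. That range can be set by 1 line: SCEL stood at 0.83 in SW620, with HCT-116 at 0.15 and the other 4 lines at 4.72 to 7.28. EPCAM, the adhesion molecule of simple epithelia, stood at -0.92 in Panc1, -5.82 in MiaPaca2 and 2.78 in SW620 against 2.66 to 4.03 in the others. ESRP1 stood at -1.07, -0.95 and 2.43 against 1.92 to 3.18. ESRP2 stood at -0.60, -2.43 and 0.68 against 0.26 to 1.38. Both splicing regulators were thus within the range of the other lines in SW620. Further genes within or above that range in SW620, chosen after their values were seen, were LAD1, an anchoring filament protein, at -2.20, -2.46 and 2.22 against 2.07 to 3.94, and HOOK1, a microtubule linker, at -2.67, -3.67 and 1.33 against 1.33 to 1.72. MACC1, a regulator of the receptor MET, stood at -2.75, -2.84 and 3.21 against 0.66 to 3.59. On the higher side, SW620 lay within or below the range of the 5 for 217 of the 310 genes, or 70.0%, against 81.5% of all genes. Across all genes SW620 correlated with HT29 at r = 0.635, with MiaPaca2 at r = 0.539 and with Panc1 at r = 0.406. With Capan2, HPAC, HPAFII and HCT-116 it correlated at r = 0.512 to 0.577. Panc1 correlated with MiaPaca2 at r = 0.609. These correlations run over 18334 genes that share arrays and the reference, and are given as a description.

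The spread between arrays was set beside line differences through HT29, the only one of the 5 other lines with more than 1 array. The question was whether each low line differed from HT29 by more than arrays of 1 line did. The fit was limma over 12 arrays in 9 groups of line and media label (two-sided, Benjamini-Hochberg adjustment over 18333 genes, CDH1 left out). The 3 comparisons share the HT29 arrays, and SW620 is 1 array without the DMSO label, assumed to vary like the others. Panc1 was lower for 2905 genes (15.8%) and higher for 3925 (21.4%). MiaPaca2 with the DMSO label was lower for 2659 (14.5%) and higher for 3191 (17.4%), and SW620 for 1284 (7.0%) and 1354 (7.39%). Without Panc1 replicate 1 the Panc1 counts were 1702 and 2430, and without Panc1 replicate 4 they were 1933 and 2561. Nothing says that arrays of 1 line came from separate cultures. The p-values therefore measure a spread between arrays that may be technical, and the number of arrays limits the precision.

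In these tests MAL2 differed from HT29 by a limma value of -10.30 (SE 0.265, adjusted p = 1.1e-06) in Panc1, -10.41 (SE 0.265) in MiaPaca2 and -10.43 (SE 0.325) in SW620. GRHL2 differed by -5.31, -5.24 and -5.39 (SE 0.288, 0.288 and 0.353), and RAB25 by -5.10, -4.88 and -5.30. All of these passed the threshold of 0.05. SW620 has no array spread of its own, so its SE comes from arrays of the other lines in every value given here. VIM was higher by 6.41, 6.76 and 2.53 (SE 0.25, 0.25 and 0.307; limma, adjusted p = 0.001038 in SW620). ZEB1 was higher by 1.78 in Panc1 and 3.22 in MiaPaca2, while the 1.07 of SW620 did not pass (limma, adjusted p = 0.102). F3 differed by -1.58 in SW620 (SE 0.33, limma, adjusted p = 0.01493), but did not pass with the MiaPaca2 arrays as 1 group (adjusted p = 0.07638) or without HT29 replicate 4 (-1.51, adjusted p = 0.05784). EPCAM differed by -4.34 and -9.00 in Panc1 and MiaPaca2, and by -0.65 in SW620 (limma, adjusted p = 0.2257). ESRP1 differed by 0.51 in SW620 (limma, adjusted p = 0.3864). CDH2 was higher in Panc1 by 3.88, and differed by 0.09 in MiaPaca2 and -0.14 in SW620, neither of which passed (limma, adjusted p = 0.8292 and 0.8412). Of the 70 lower genes besides CDH1, 69 passed as lower in Panc1, 69 in MiaPaca2 and 66 in SW620, and of the 17 higher genes 17, 17 and 15 passed as higher. The gap rule itself set these lines apart from HT29 for every called gene, MAL2, GRHL2 and RAB25 included. The counts and p-values of called genes thus say only which differences exceeded the spread between arrays. SLPI was among those that did not in SW620, with a difference of -1.81 (SE 0.639, limma, adjusted p = 0.1046).

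The counts by list are read against the shares of all genes, which were 15.8%, 14.5% and 7.0% lower and 21.4%, 17.4% and 7.39% higher in Panc1, MiaPaca2 and SW620. Of the lists, 21 of 29 apical genes were lower than in HT29 in Panc1, 21 in MiaPaca2 and 13 in SW620, with 2, 2 and 0 higher. Of 16 protease and inhibitor genes 11, 14 and 8 were lower and 1, 0 and 1 higher. Of 33 mucin and antigen genes 20, 20 and 15 were lower. Desmosomal genes were divided in Panc1, where 4 were lower and 5 higher of 15, and 1 was lower in SW620, near the share of all genes. Of 28 filament and motility genes 16, 14 and 9 were higher and 2, 2 and 0 lower. Of 34 matrix genes 17 were higher in Panc1 and 14 in MiaPaca2, and 4 in SW620. Of 30 neural genes 13, 11 and 10 were higher and 1, 1 and 0 lower. The differences between the 3 lines in these counts were not tested. Lists and their members were chosen with earlier results of these data known, so a count above the share of all genes is no test of a list.

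The DMSO label does not divide the sets cleanly: 4 of the 6 arrays of the low lines carry it and 2 of the 6 others. With DMSO-labelled arrays alone, Panc1 and MiaPaca2 against HT29, 70 of the 71 lower genes and all 17 higher genes kept a gap of at least 1 in the same direction. Of all 18334 genes, 1397 were lower and 1519 higher by that rule. Every array of Panc1 and HT29 carries the label, so their values are those that made the calls. Only a change in MiaPaca2 could remove a gene. With arrays without the label alone, MiaPaca2 and SW620 against Capan2, HPAC, HPAFII and HCT-116, 65 and 12 did. Of all genes, 228 and 50 met that rule. Only the MiaPaca2 value there differs from those that made the calls, so these counts cannot show whether the label matters. Of the 71 lower genes 46 were read by a single feature, and for 22 of the other 25 every feature kept the order.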

How the data were processed

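RNA of 8 cell lines was measured on 12 arrays with 2 channels, Cy5 for the cell line and Cy3 for the reference per the labels. The values the authors deposited were taken as log2 ratios because they run from -10.71 to 9.61 with array medians between 0.00 and 0.04. Their log base, background correction and normalization are not given in the sources used. Of 45220 features, 31332 had 1 gene symbol in the platform annotation, 93 several and 13795 none. Only the first kind was used. Features were averaged per gene (18334 genes, 7759 with more than 1 feature) and arrays per line. Correlations between arrays ran from 0.836 to 0.941 within a line and from 0.37 to 0.731 between lines, and no 2 arrays were identical.

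The split into 3 and 5 lines was described by gaps between line means, without a test. Named pairs of lines were tested in R 4.3.3 by the lmFit and eBayes steps of limma 3.58.1 (3 residual and 5.23 prior degrees of freedom), which was tested on simulated data. Tables were handled with python 3.11.15, pandas 2.3.3 and numpy 2.4.6, and figures drawn with matplotlib 3.10.9. The 22 lists hold 467 genes, of which 435 were measured. Members and lists were chosen with earlier results of these data known. The genes always named were CDH1, EPCAM, CDH2, VIM, ZEB1, ZEB2, SNAI2, ESRP1, ESRP2, GRHL2, OVOL2, RAB25, ST14 and F3. Named besides were the 15 widest gaps in each direction, up to 4 called genes per list, and list members that went furthest against their list. Other named genes were chosen after their values were seen. Alternatives were quantile normalization, another centring, 1 feature per gene (the most variable), a filter on SD, other gap limits, other groupings of MiaPaca2, robust eBayes, a minimum difference, subsets by media label (added after seeing the data), and leaving out each line or array.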

Additional observations from a re-analysis of the deposited data

Results flagged for a closer look

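Among the values of the 5 other lines for 71 named genes, 5 genes had a line whose distance to the nearest of the others was large against the whole range by Dixon's criterion, and chance alone flags about 1 in 20 such groups. These were CDH2 in HPAFII at -4.70, ZEB1 in HPAC at -1.99, KRT15 in Capan2 at 2.37, TFF3 in HT29 at 1.70 and TFPI2 in HPAFII at -8.99. For ZEB1 the other 4 lines lay between -1.79 and -1.76, so the flagged distance is small on the log2 scale. HPAFII was flagged for both CDH2 and TFPI2. The values of HPAFII, HPAC and Capan2 rest on 1 array each, and that of HT29 on 2.

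For 5 of the 71 named genes every low line of one organ moved one way and every low line of the other organ the opposite way. This difference between organs was not tested. Over all genes, with a gap of at least 1 in both organs, 20 were lower in Panc1 and MiaPaca2 but higher in SW620, and 11 the reverse. SNAI2, a repressor of CDH1, was lower in the pancreatic low lines by a difference of -1.42 and higher in SW620 by 0.87. DST, a linker of filaments to hemidesmosomes, differed by 1.05 and -0.80, and THBS1, a matrix glycoprotein, by -2.40 and 1.09. TFPI2, a protease inhibitor of the matrix, differed by 3.04 and -0.20, but MiaPaca2 and HPAC both stood at -6.47, so the first value rests on Panc1 at -2.45. SYN1, a synaptic vesicle protein, differed by -0.65 and 0.23.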

How the results depend on the processing

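The split of 3 and 5 lines gave 71 lower and 17 higher genes. With a gap of at least 2 these were 27 and 1, with a gap of any size 567 and 686, and between single arrays the higher genes were 6. Leaving out 1 line or array gave 68 to 199 lower and 13 to 128 higher genes. DMSO-labelled arrays alone, which hold 3 lines, gave 1397 and 1519, and arrays without the label 228 and 50. The share of genes lower in Panc1 and MiaPaca2 that were also lower in SW620, 22.0%, was 18.1% at a gap of 2, 36.4% at any gap, 29.7% without DMSO-labelled arrays, and 17.4% to 44.6% with 1 line or array left out. The same share for higher genes, 10.3%, was 2.90%, 36.1% and, with 1 left out, 7.91% to 35.2%. Of all genes, 3.98% were lower and 3.89% higher in SW620 at a gap of 1, and 29.8% and 34.3% at any gap. At a gap of at least 2, SW620 was lower for 214 and higher for 206 of the 18334 genes. The 3.98% and 3.89% are therefore no background for the shares at that gap. At any gap the share for higher genes was thus near that of all genes. With 1 line left out the share of all genes was not computed. The share of lower promoters with CACCTG, 45.8%, was 23.0% at any gap, 21.5% with DMSO-labelled arrays and 26.5% without them. In the comparison of Panc1 with HT29, leaving out 1 array gave 1702 to 3174 lower and 2430 to 4304 higher genes. The causes of these changes were not tested, except that a count over fewer lines follows an easier rule. Centring, quantile normalization, the most variable feature and the filter on SD left all of these counts and shares within 1.5 times. Of 897 values of 39 genes under the alternatives 120 moved by more than the spread between arrays. Reversals were counted only for called genes, and none of these reversed. Genes that were not called could change sign. SNAI2 went from -0.53 to 0.48 with DMSO-labelled arrays alone, and ZEB2 from 0.48 to -0.12 with unlabelled arrays alone. In SW620 against HT29, F3 no longer passed under 2 alternatives, and ZEB1 passed without either DMSO-labelled MiaPaca2 replicate (1.07, limma, adjusted p = 0.04911).

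No paired analysis was possible because the groups compared share fewer than 2 replicate numbers. Line values of 5 of the 8 lines rest on 1 array, signal over background is unknown, and the media label and the line cannot be told apart outside MiaPaca2.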
